A study of Mus musculus with 9 samples.

Results

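The mitochondrially encoded genes were taken as every gene of the count files whose symbol starts with mt-. There were 37 of them among 55453 genes: 13 protein-coding genes, 2 rRNA genes and 22 tRNA genes. Of these, 17 passed the filter on low counts (all 13 protein-coding genes, both rRNA genes and the tRNA genes mt-Tp and mt-Tc), and the other 20 were tRNA genes. Bulk RNA-seq measured them in the whole pancreas of mouse embryos at stage e18.5, of a mixed C57BL6 strain, with 1 library for each of 9 embryos. The groups of 3 embryos were labelled Pdx1:Cre (called control here), Pdx1:Cre;Grg3 (Grg3 mutant) and Pdx1:Cre;Grg3Grg4 (Grg3 Grg4 mutant), so that all 3 groups carry the Pdx1:Cre transgene. Grg3 and Grg4 are the Groucho corepressors Tle3 and Tle4. The Pdx1 promoter drives Cre in the pancreatic epithelial lineage, whereas mesenchyme, vessels, nerves and blood in the dissected organ are not its targets. Whether the Grg alleles were deleted on both chromosomes is not stated in the labels.

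The mitochondrial genome is a small circle of DNA, transcribed from both strands as long precursors. The tRNAs lie between most of the other genes and are cut out to release the mRNAs and rRNAs. Its protein-coding genes specify core subunits of respiratory complexes I, III and IV and of the ATP synthase, and its rRNAs and tRNAs serve the mitochondrial ribosome. All other subunits, and the enzymes that copy, transcribe and translate mitochondrial DNA, are encoded in the nucleus. Acinar cells, which make up most of the late fetal pancreas, devote much of their mRNA to digestive enzymes.

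Gene counts summed to between 46817453 and 62744499 per library. Tle3 did not go the way of the labels: its level was 64.8 ± 2.5 CPM (TMM-scaled counts per 1e6 gene counts, SD, n = 3) in controls, 153 ± 12.0 in libraries labelled Grg3 mutant and 135 ± 10.5 in libraries labelled Grg3 Grg4 mutant, log2 fold changes of 1.24 and 1.05 (edgeR adjusted p = 0.000273 and 0.000565). Tle4 was at 7.77 ± 0.0856, 12.2 ± 2.10 and 11.6 ± 3.51 CPM and did not pass the test (edgeR adjusted p = 0.132 and 0.155 against control). Gene counts do not show which exons the reads cover, so directions below hold between labels. The libraries also differed in the tissue they held. The 10 acinar markers summed to 217000 to 244000 CPM in controls, 125000 to 230000 in the Grg3 group and 145000 to 169000 in the Grg3 Grg4 group, with none at 0 in any group. Read from X-linked and Y-linked transcripts, 1 control, 1 Grg3 mutant and all 3 Grg3 Grg4 mutant embryos were male.

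Annotated nuclear transcripts hold copies of stretches of several mt- genes, and counts of those genes are less certain, so the sequences come first. In the GENCODE M21 annotation of GRCm38, the minus strand of chr1:24611535-24616197 carries pseudogenes collinear with chrM:6381-11043, a segment of 4663 bases. The genes mt-Co2, mt-Atp8, mt-Atp6, mt-Co3, mt-Nd3 and mt-Nd4l and 5 tRNA genes lie wholly inside it. The first pair below shows mt-Co1 (bases 1063 to 1126 of the gene, chrM:6390-6453, plus strand) and its partial copy Gm29216 (chr1:24616125-24616188, minus strand), the second mt-Nd3 (chrM:9459-9521, plus strand) and Gm28438 (chr1:24613057-24613119, minus strand). Capitals mark the one base by which each pair differs over its alignment. The third pair shows the start of mt-Co2 (chrM:7013-7092, plus strand) and of Gm28661 (chr1:24615486-24615565, minus strand), which hold the same letters.
mt-Co1: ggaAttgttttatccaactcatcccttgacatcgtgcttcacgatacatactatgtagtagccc
Gm29216: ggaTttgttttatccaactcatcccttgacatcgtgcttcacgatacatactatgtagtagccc
mt-Nd3: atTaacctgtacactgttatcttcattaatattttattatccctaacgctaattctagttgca
Gm28438: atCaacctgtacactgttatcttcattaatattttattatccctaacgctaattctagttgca
mt-Co2: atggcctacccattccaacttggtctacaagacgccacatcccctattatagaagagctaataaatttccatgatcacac
Gm28661: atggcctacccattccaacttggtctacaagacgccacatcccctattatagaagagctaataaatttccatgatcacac

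Counted from 1 at the 5′ end of the mt- gene, with its base first, the substitutions are A1066T between mt-Co1 and Gm29216 (482 of 483 aligned bases identical) and T3C between mt-Nd3 and Gm28438 (344 of 345). No base differed over the aligned lengths of Gm28661 with mt-Co2 (681 bases), Gm10925 with mt-Atp6 (678), Gm28437 with mt-Co3 (783), Gm10222 with mt-Nd4l (294) and Gm28439 with mt-Nd4 (876). A read that lies in such a stretch has 2 equally good places. Reads placed at several sites made up 15.8% to 20.8% of a library and were assigned to no gene. A measure of this is the share of 100-base windows of a gene that occur in no other annotated transcript. It was 0.146% for mt-Co3, 0.513% for mt-Co2, 0.516% for mt-Atp6, 1.52% for mt-Nd4l and 2.41% for mt-Nd3. For mt-Nd4 it was 39.3%, for mt-Co1 69.2% and for mt-Nd2 96.8%. For mt-Nd1, mt-Nd5, mt-Nd6, mt-Cytb, mt-Rnr1 and mt-Rnr2 it was 100%. The value of 100% for mt-Atp8 counts annotated copies only: the collinear place, chr1:24614609-24614812, overlaps the end of Gm10925 by 43 bases, and the rest lies in no annotated transcript and its sequence was not analysed here. In windows of 50 bases, which matter if reads were short (the read length is not given), the share was 0.0% for mt-Co2, 37.8% for mt-Nd4, 48.9% for mt-Co1, 91.8% for mt-Nd2, 92.4% for mt-Nd5 and 98.96% for mt-Rnr2. Less similar copies outside chromosome 1 also enter these shares. On chromosome 2 they include Gm13340 (97.61% identical to mt-Co1), Gm13341 (95.91%, mt-Co2) and Gm13339 (96.67%, part of mt-Nd2). Gm4076 on chromosome 13 and Gm11407 on chromosome 4 match parts of mt-Nd5 (95.18% and 92.34%).

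Levels per length followed the position of a gene relative to this segment. In controls, mt-Co1, a catalytic subunit of complex IV, stood at 5907 ± 135 CPM per kb (SD, n = 3) and mt-Cytb, the cytochrome b of complex III, at 5521 ± 236, with overlapping ranges (5751 to 5985 and 5281 to 5753). Complex I subunits came next: mt-Nd1 at 2546 ± 359, mt-Nd5 at 1944 ± 70.3, mt-Nd6 at 1926 ± 41.9, mt-Nd2 at 1325 ± 182 and mt-Nd4 at 1118 ± 61.6, where mt-Nd5 and mt-Nd6 did not differ beyond their spread. These levels divide by the whole gene length, although reads with several places were not counted. The order of these genes is thus not corrected for copied parts. Only 39.25% of the 100-base windows of mt-Nd4 and 69.16% of those of mt-Co1 had no annotated copy. The 6 genes inside the segment were all lower, from mt-Co2 at 122.9 ± 13.2 through mt-Atp6 at 60.6 ± 4.43, mt-Co3 at 44.8 ± 9.54, mt-Nd4l at 23.9 ± 4.03 and mt-Atp8 at 20.8 ± 12.5 to mt-Nd3 at 9.33 ± 1.003. Over all 9 libraries, the highest value of any gene inside the segment was 184.3 CPM per kb (mt-Co2), and the lowest of the 7 other protein-coding genes was 867.6 (mt-Nd4). The rRNA genes mt-Rnr1 and mt-Rnr2, at 232.7 ± 22.3 and 147.0 ± 25.2, stood far below the mRNAs outside the segment. The sources used here do not give whether rRNA was depleted or poly(A) RNA selected.

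**Figure D1:**
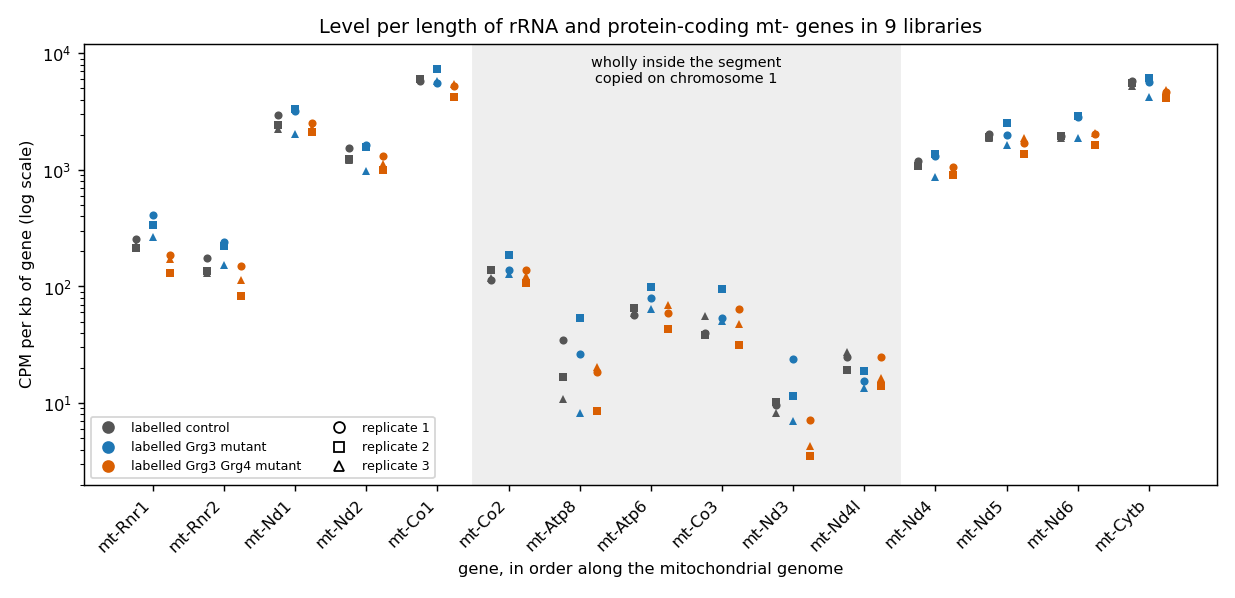
CPM per kb (log scale) of the 13 protein-coding and 2 rRNA mt- genes in gene order, 1 point per library, coloured by label and shaped by replicate. The 6 genes in the shaded block, inside the segment copied on chromosome 1, reach at most 184.3 CPM per kb, and the other 7 protein-coding genes are at 867.6 or more.

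The 13 protein-coding genes together took 2.47%, 2.20% and 2.25% of gene counts in controls, 2.78%, 3.65% and 2.02% in the libraries labelled Grg3 mutant, and 2.44%, 2.10% and 2.44% in those labelled Grg3 Grg4 mutant. The Grg3 group held both the highest and the lowest share of the 9 and overlapped both other groups. The means were 2.31% ± 0.144, 2.82% ± 0.818 and 2.33% ± 0.191 (SD, n = 3), and without replicate 2 the Grg3 mean was 2.40%. That replicate had the highest mitochondrial share and also the lowest share of 65 acinar enzyme genes, 23.5% against 34.4% to 36.9% in controls. Its smooth muscle markers (6 genes) summed to 968 CPM against 124 to 183 in controls. They summed to nearly as much, 960 CPM, in Grg3 Grg4 mutant replicate 2, whose 13-gene share was 2.10%, and the part of tissue make-up in its mitochondrial share was not tested. In bulk tissue, fewer cells of a type and less RNA per cell cannot be told apart.

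With acinar enzyme genes taken out of the total, the 13 genes took 3.58% ± 0.164 in controls, 3.97% ± 0.825 in the Grg3 group and 3.27% ± 0.315 in the Grg3 Grg4 group (SD, n = 3). The 7 genes not wholly inside the copied segment held nearly all of the total, 2.46%, 2.18% and 2.23% of gene counts in controls, against 0.0155% to 0.0161% for the 6 genes inside it.

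**Figure D2:**
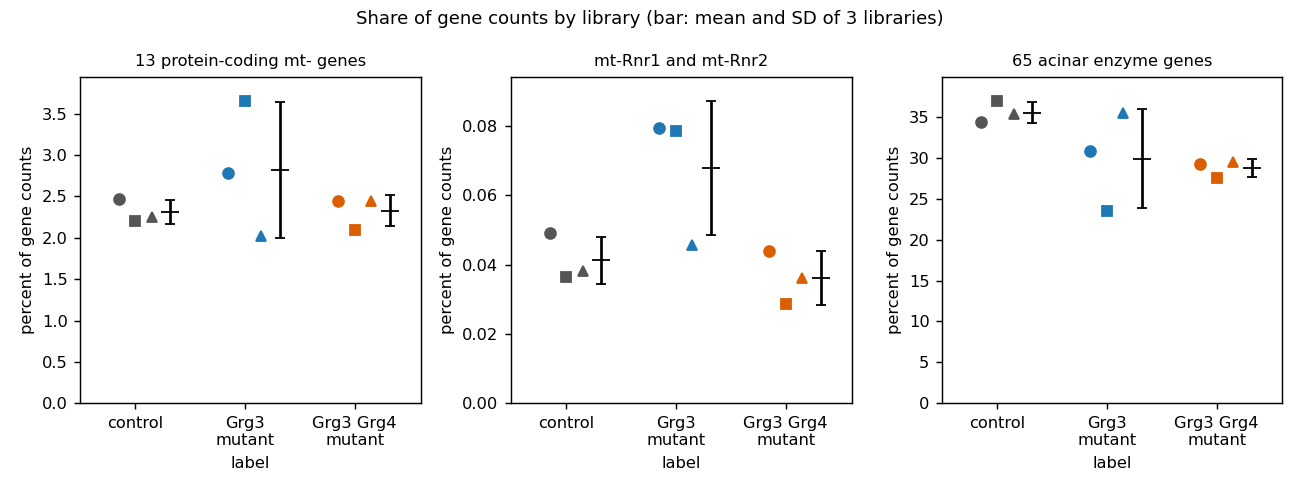
Percent of gene counts on the 13 protein-coding mt- genes, on mt-Rnr1 and mt-Rnr2, and on 65 acinar enzyme genes, 1 point per library with the group mean and SD (n = 3). Grg3 mutant replicate 2 (square) has the highest protein-coding share, 3.65%, and the lowest acinar share, 23.5%.

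No mt- gene passed the test in any comparison (edgeR quasi-likelihood test over 19166 genes, Benjamini-Hochberg adjusted p under 0.05). Over all genes, 1.40% passed between libraries labelled Grg3 mutant and control (0.704% higher, 0.694% lower). Between those labelled Grg3 Grg4 mutant and control 2.17% passed (1.25% higher, 0.918% lower), and between the mutant labels 0.172% (0.115% higher, 0.0574% lower). At an unadjusted p under 0.05 the counts were 4, 1 and 6 of 17 mt- genes, where all genes gave 19.1%, 20.2% and 17.3%. DESeq2 called 1, 1 and 3 mt- genes and limma voom called 0 in each. The comparisons share libraries, so their values stand side by side below as descriptions of each. A p that misses the threshold does not show that levels were alike.

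Between libraries labelled Grg3 mutant and control, 15 of the 17 log2 fold changes were above 0, with a median of 0.28 (0.17 over the 13 protein-coding genes, 0.02 over all genes tested). The libraries did not overlap for 3 mt- genes, where all genes gave 24.6% (12.6% higher, 12.0% lower): mt-Rnr1 and mt-Tp were higher and mt-Nd4l was lower. Between libraries labelled Grg3 Grg4 mutant and control, 16 of 17 were below 0, with a median of -0.23 (protein-coding -0.21, all genes 0.01). Here 6 genes did not overlap, all lower (mt-Co1, mt-Cytb, mt-Nd3, mt-Nd4, mt-Nd5 and mt-Rnr1), where all genes gave 29.1% (14.9% higher, 14.2% lower). Between the mutant labels 16 of 17 were below 0 in the Grg3 Grg4 group, with a median of -0.42 (protein-coding -0.32, all genes -0.0032), and mt-Co1, mt-Rnr1 and mt-Rnr2 did not overlap and were lower, where all genes gave 21.1% (11.8% higher, 9.31% lower). The genes share precursor transcripts and libraries and are not independent of each other. The log2 fold changes and overlaps are of TMM-scaled values. The TMM factors were 0.868 to 0.936 in controls, 0.918 to 1.16 in the Grg3 group and 1.05 to 1.11 in the Grg3 Grg4 group. As a share of unscaled gene counts, the 13 protein-coding genes overlapped between controls (2.20% to 2.47%) and the Grg3 Grg4 group (2.10% to 2.44%). So did each of the 6 genes that did not overlap between these labels after scaling. For mt-Co1, Grg3 Grg4 mutant replicate 1 held 445236 counts in 52389775 gene counts, a larger share than control replicate 2, with 441587 in 55030395.

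**Figure D3:**
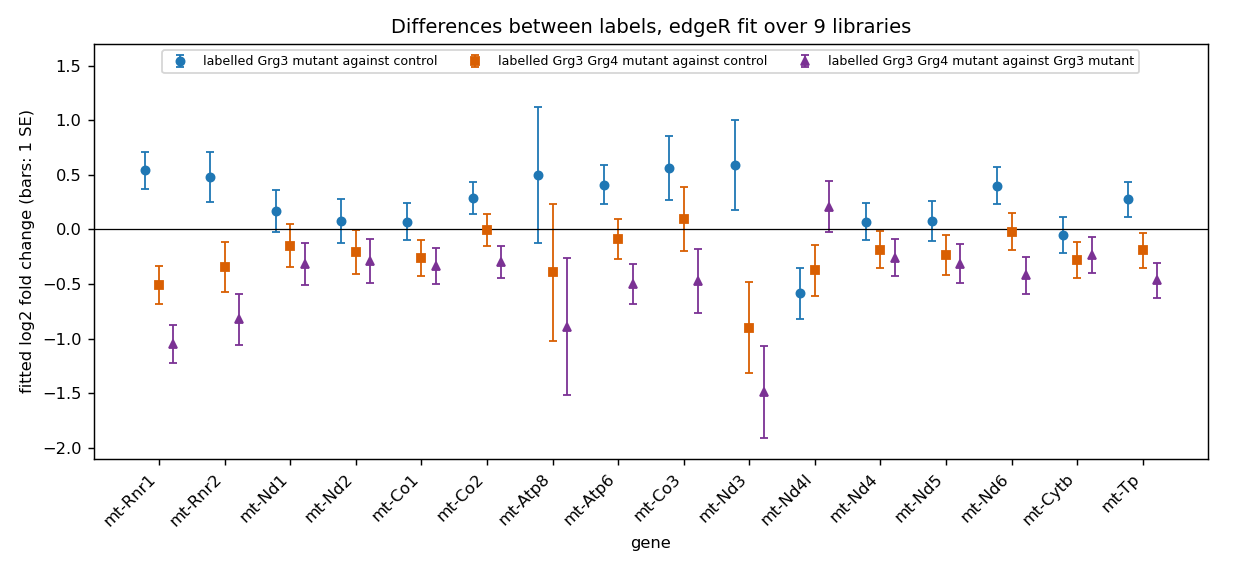
Fitted log2 fold change of 16 mt- genes in 3 comparisons of labels, with bars of 1 SE. The values of mt-Rnr1 are 0.54, -0.51 and -1.05, and those of mt-Nd4l are -0.58, -0.38 and 0.21, of opposite sign in the first and the third.

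Complex I takes electrons from NADH, and 7 of its subunits are mitochondrially encoded. mt-Nd1, part of the membrane arm near the quinone site, was counted at 2818, 2340 and 2151 CPM in controls, 3051, 3199 and 1960 in the Grg3 group and 2413, 2005 and 2180 in the Grg3 Grg4 group. mt-Nd2, a proton-pumping subunit, was at 1593, 1274 and 1259, then 1703, 1643 and 1019, then 1368, 1041 and 1161 CPM. For both genes the Grg3 group held the highest and the lowest library, and all groups overlapped. mt-Nd4, a further pumping subunit, was at 1639, 1493 and 1492 CPM in controls, 1800, 1868 and 1196 in the Grg3 group and 1469, 1235 and 1363 in the Grg3 Grg4 group. mt-Nd5, at the far end of the membrane arm, was at 3692, 3491 and 3453, then 3661, 4614 and 2951, then 3124, 2503 and 3416 CPM. In TMM-scaled CPM, all 3 Grg3 Grg4 libraries lay below all 3 controls for mt-Nd4 and mt-Nd5. Their log2 fold changes were -0.19 ± 0.167 and -0.23 ± 0.182 (SE), and neither gene passed the test (edgeR adjusted p = 0.583 and 0.515).

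mt-Nd6 is the only protein-coding gene transcribed from the other strand. It was counted at 1016, 1008 and 975.0 CPM in controls, 1480, 1510 and 970.3 in the Grg3 group and 1046, 841.2 and 1073 in the Grg3 Grg4 group. Replicates 1 and 2 of the Grg3 group stood above the other 7 libraries, and replicate 3 was below all controls. The log2 fold change was 0.40 ± 0.172 (SE) between libraries labelled Grg3 mutant and control (edgeR adjusted p = 0.243) and -0.02 ± 0.171 between Grg3 Grg4 mutant and control (0.965). As a share of the 13 protein-coding genes, mt-Nd6 took 3.85%, 3.98% and 3.93% in controls, 5.49%, 4.80% and 4.41% in the Grg3 group and 4.54%, 4.45% and 4.61% in the Grg3 Grg4 group. All 6 libraries with a mutant label lay above all 3 controls, a pattern noticed after the values were seen. The exact 2-sided permutation p was 0.1 for each mutant label against control, the smallest that 3 against 3 libraries allow. After Benjamini-Hochberg adjustment over the 15 protein-coding and rRNA genes of each comparison (45 tests in all), these exact p were 0.25 and 0.5. By the same measure 6 of the 15 genes separated the Grg3 libraries from the controls at that p. mt-Atp6 (0.148%, 0.176% and 0.162% in controls, 0.200%, 0.213% and 0.198% in the Grg3 group), mt-Nd6, mt-Rnr1 and mt-Rnr2 were higher, and mt-Cytb and mt-Nd4l were lower. Of the 15, 3 separated the Grg3 Grg4 libraries from the controls: mt-Nd6 was higher, and mt-Nd3 and mt-Rnr1 were lower. Between the mutant labels mt-Nd4l was higher in the Grg3 Grg4 group, and mt-Nd3, mt-Rnr1 and mt-Rnr2 were lower, without overlap. These shares are taken of a common total, so they are tied to each other. The measure was not taken over all genes. By the unlike measure of TMM-scaled CPM, libraries did not overlap for 24.6% of all genes between Grg3 mutant and control labels. For Grg3 Grg4 mutant against control it was 29.1%, and between the mutant labels 21.1%. Without a known strand setting, reads of mt-Nd6 and antisense reads of the opposite strand cannot be told apart.

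Some marker lists also separated every control from every library with a mutant label, namely those of liver, striated muscle, smooth muscle and endocrine cells. The lists of acinar cells, duct, intestine, erythroid cells, leukocytes, mesenchyme and endothelium did not. The 10 liver markers summed to 212 to 226 CPM in controls, 362 to 1780 in the Grg3 group and 826 to 2010 in the Grg3 Grg4 group. For the 10 striated muscle markers the sums were at most 4.02 CPM in controls, at most 33.3 in the Grg3 group and 8.89 to 1650 in the Grg3 Grg4 group, with 8.89 the lowest of the 6 libraries with a mutant label. For the 6 smooth muscle markers they were 124 to 183, 313 to 968 and 224 to 960 CPM. The 8 endocrine markers were lower with a mutant label, at 5800 to 7050, 3490 to 5610 and 1840 to 4040 CPM. No marker of these lists was at 0 in all libraries of a group. The part of these tissues and cell types in the mt-Nd6 share and in the mt- levels of the groups was not tested.

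The small complex I subunits mt-Nd3 and mt-Nd4l lie inside the copied segment and had few counts. mt-Nd3 was at 160, 169 and 130 counts in controls, 451, 291 and 121 in the Grg3 group and 139, 84 and 73 in the Grg3 Grg4 group. Replicate 1 of the Grg3 group stood far above the rest. Its log2 fold change was -1.49 ± 0.420 (SE) between the mutant labels, the largest of any mt- gene tested, without passing (edgeR adjusted p = 0.133, DESeq2 adjusted p = 0.0104). The nuclear copy Gm28438 took 55.3%, 43.5% and 45.4% of the counts of its pair with mt-Nd3 in controls, 62.0%, 49.1% and 41.5% in the Grg3 group and 72.1%, 75.1% and 79.5% in the Grg3 Grg4 group. This share was higher in all Grg3 Grg4 libraries than in any other, and its part in the mt-Nd3 difference was not tested. mt-Nd4l was at 7.45, 5.76 and 8.07 CPM in controls, 4.59, 5.56 and 4.03 in the Grg3 group and 7.37, 4.13 and 4.92 in the Grg3 Grg4 group. It stood below every control in every Grg3 library, at -0.58 ± 0.234 (edgeR adjusted p = 0.215).

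Complex III passes electrons to cytochrome c, and mt-Cytb is its only mitochondrially encoded subunit. It was counted at 6582, 6325 and 6042 CPM in controls, 6423, 7031 and 4854 in the Grg3 group and 5366, 4682 and 5546 in the Grg3 Grg4 group. In TMM-scaled CPM the Grg3 Grg4 libraries were all below the controls, at a log2 fold change of -0.28 ± 0.165 (SE), which did not pass (edgeR adjusted p = 0.377).

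Complex IV reduces oxygen. mt-Co1 was counted at 8885, 9247 and 9245 CPM in controls, 8623, 11290 and 8854 in the Grg3 group and 8024, 6472 and 8341 in the Grg3 Grg4 group. In TMM-scaled CPM it was lower in all 3 Grg3 Grg4 libraries than in any other library. Its log2 fold changes were -0.26 ± 0.168 against control and -0.33 ± 0.168 between the mutant labels (edgeR adjusted p = 0.423 and 0.337). mt-Co2, which receives electrons from cytochrome c, was at 77.7, 94.4 and 80.1 CPM in controls, 94.7, 126.1 and 87.6 in the Grg3 group and 94.1, 73.3 and 84.0 in the Grg3 Grg4 group. mt-Co3 was at 31.5, 30.2 and 43.8, then 42.0, 74.7 and 39.3, then 50.5, 24.9 and 37.3 CPM. Both genes were highest in replicate 2 of the Grg3 group and overlapped between all groups.

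The ATP synthase subunits mt-Atp8 and mt-Atp6 share 43 bases in different reading frames. The stretch below (chrM:7907-7989, plus strand, bases 142 to 224 counted from the start of mt-Atp8) is shown because a read inside the capitals, the bases both genes hold, belongs to both.
mt-Atp8 and mt-Atp6: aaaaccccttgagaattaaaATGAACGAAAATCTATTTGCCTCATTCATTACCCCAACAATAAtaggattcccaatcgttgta

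mt-Atp6, part of the proton channel, was at 38.9, 44.7 and 40.2 CPM in controls, 53.9, 67.0 and 43.5 in the Grg3 group and 39.97, 29.6 and 46.9 in the Grg3 Grg4 group. mt-Atp8 was at 7.10, 3.43 and 2.20 CPM in controls, 5.37, 10.9 and 1.66 in the Grg3 group and 3.803, 1.73 and 4.18 in the Grg3 Grg4 group. Within each group mt-Atp8 varied more than 2-fold between libraries, and its log2 fold changes had an SE of 0.622 to 0.627. Ambiguous reads, which fall on several genes at once, made up 5.14% to 5.97% of a library and were left unassigned.

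Of the 2 rRNA genes, only mt-Rnr1 kept all groups apart, and that in TMM-scaled CPM. In TMM-scaled CPM, mt-Rnr2 overlapped between controls and each mutant label. How library preparation treated rRNA is unknown, and its part in the rRNA values of the libraries was not tested. mt-Rnr1, the RNA of the small mitochondrial ribosomal subunit, was counted at 246.1, 205.1 and 215.5 CPM in controls, 392.2, 322.8 and 255.1 in the Grg3 group and 177.9, 125.6 and 164.9 in the Grg3 Grg4 group. No library of one group overlapped another in TMM-scaled CPM: all Grg3 libraries were above all controls, and all Grg3 Grg4 libraries below. As a percent of the protein-coding mt- counts, mt-Rnr1 also stayed apart (0.809 to 0.932 in controls, 1.03 to 1.46 and 0.664 to 0.773). As a share of unscaled gene counts, the 2 rRNA genes together overlapped between controls and each mutant label. They held 0.0365% to 0.0491% in controls, 0.0456% to 0.0795% in the Grg3 group and 0.0286% to 0.044% in the Grg3 Grg4 group. Unscaled, mt-Rnr1 alone stayed higher in every Grg3 library than in any control, but overlapped between controls and the Grg3 Grg4 group. Grg3 Grg4 mutant replicate 1 held 9870 counts of it in 52389775 gene counts, a larger share than control replicate 2, with 9794 in 55030395. The log2 fold change of mt-Rnr1 was 0.54 ± 0.171 (SE) between Grg3 mutant and control labels, -0.51 ± 0.171 between Grg3 Grg4 mutant and control, and -1.05 ± 0.172 between the mutant labels. None passed (edgeR adjusted p = 0.133, 0.137 and 0.0523). For the last, the adjusted p ran from 6.68e-07 with DESeq2 to 0.156 over the alternatives. It passed with DESeq2, with no filter on low counts (0.00396), with a filter at 1 CPM (0.0411) and without Grg3 mutant replicate 3 (0.0355). DESeq2 also called mt-Rnr1 between Grg3 mutant and control (adjusted p = 0.0285) and between Grg3 Grg4 mutant and control (0.0391).

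mt-Rnr2, the RNA of the large subunit, was counted at 278.1, 215.0 and 204.4 CPM in controls, 378.3, 352.0 and 241.7 in the Grg3 group and 237.9, 131.2 and 179.6 in the Grg3 Grg4 group. Only the mutant labels did not overlap, and there narrowly. Their log2 fold change was -0.82 ± 0.230 (SE; edgeR adjusted p = 0.132, DESeq2 adjusted p = 0.00812).

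Sex differed between the groups, so the rRNA values were also read within it. Among females, mt-Rnr1 was at 205.1 and 215.5 CPM in controls and at 322.8 and 255.1 in the Grg3 group. Among males it was at 246.1 in the control, 392.2 in the Grg3 library and 177.9, 125.6 and 164.9 in the Grg3 Grg4 group. Males held 1 control and 1 Grg3 library, and females no Grg3 Grg4 library, too few for a test within a sex. With sex as a term, the mt-Rnr1 difference between the mutant labels was -1.26 (edgeR adjusted p = 0.079), and that of Grg3 Grg4 mutant against control was -0.73 (0.161).

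Relative to the 13 mRNAs of the same libraries, the rRNA counts came to 1.99%, 1.66% and 1.69% in controls, 2.86%, 2.15% and 2.26% in the Grg3 group and 1.81%, 1.36% and 1.48% in the Grg3 Grg4 group. The Grg3 libraries lay above all others by this ratio, and the remaining groups overlapped. Erythroid markers (7 genes) summed to 1670 to 2050 CPM in controls, 1930 to 3380 in the Grg3 group and 1690 to 3400 in the Grg3 Grg4 group, with none at 0, and their part in the rRNA values was not tested.

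**Figure D4:**
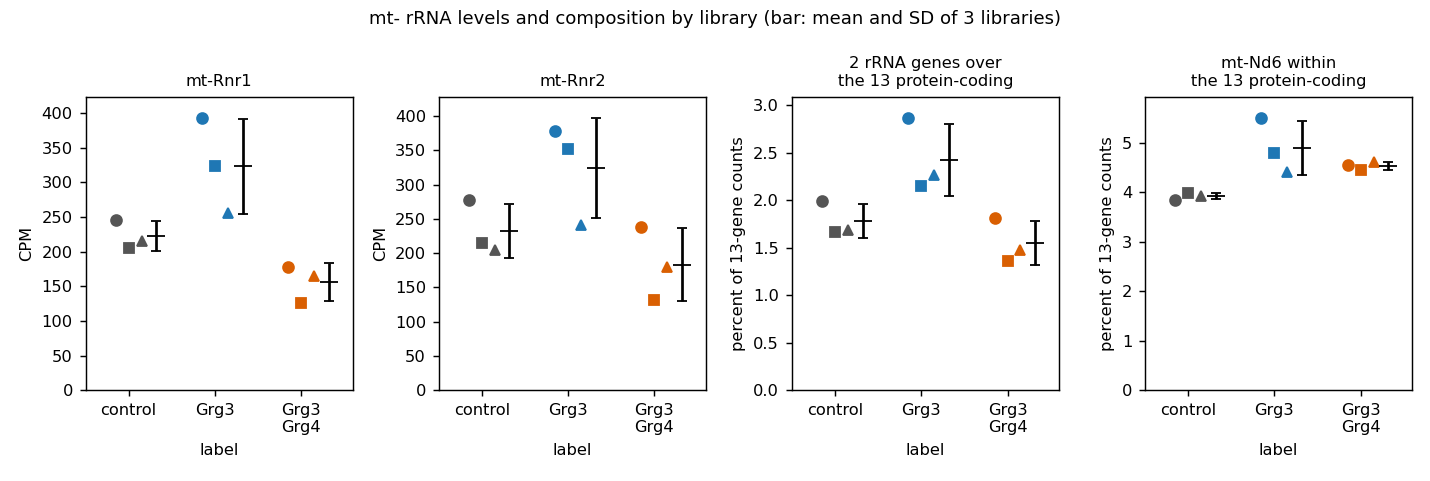
CPM of mt-Rnr1 and mt-Rnr2, the rRNA counts as a percent of the 13 protein-coding mt- genes, and mt-Nd6 as a percent of those 13, 1 point per library with the group mean and SD (n = 3). The groups do not overlap for mt-Rnr1 in TMM-scaled CPM, and all 6 libraries with a mutant label exceed the 3 controls in the mt-Nd6 share.

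The tRNA genes, of 59 to 75 bases, were almost uncounted apart from mt-Tp. Of the 22, 15 were at 0 in all 9 libraries, which allows up to 0.0412 to 0.066 CPM per library (3 counts, counting error only). That bound holds only for reads assigned to the gene alone. A read that also reaches a neighbouring gene can be ambiguous and left unassigned, so 0 counts do not show that a tRNA was absent. The sequences below are those of mt-Tp (proline, chrM:15356-15422, minus strand), the one tRNA gene with many counts, of mt-Tc (cysteine, chrM:5192-5257, minus strand), the next, and of mt-Tf (phenylalanine, chrM:1-68, plus strand), one of those at 0. Capitals mark the anticodon letters, and all sequences printed here are from GENCODE M21 on GRCm38.
mt-Tp: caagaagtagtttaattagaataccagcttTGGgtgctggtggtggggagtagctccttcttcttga
mt-Tc: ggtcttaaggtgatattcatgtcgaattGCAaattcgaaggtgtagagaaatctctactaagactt
mt-Tf: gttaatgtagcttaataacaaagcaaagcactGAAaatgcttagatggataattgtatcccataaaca

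mt-Tp was at 23.9, 23.3 and 21.96 CPM in controls, 23.97, 33.3 and 26.3 in the Grg3 group and 17.8, 17.4 and 25.4 in the Grg3 Grg4 group. The Grg3 libraries lay above the controls by a log2 fold change of 0.28 ± 0.162 (SE; edgeR adjusted p = 0.385). mt-Tp held 11714 of the 11885 tRNA counts of all libraries. mt-Tc had 4 to 31 counts per library, and mt-Te, mt-Tn, mt-Tq and mt-Tm had at most 6 in any library. The tRNA genes with counts were mostly those transcribed on the strand of mt-Nd6, where 5 of 8 had a count (11881 counts, 167 of them without mt-Tp). On the strand of the other mRNAs 2 of 14 did (4 counts). mt-Tp is the last annotated gene before the control region, and its reads cannot be told apart from those of a longer RNA through that place.

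The chromosome 1 copies were counted too, and some varied between libraries by more than the mt- genes they match. Gm28437, the copy of mt-Co3, had 1556, 1847 and 1456 counts in controls, 8294, 9590 and 1830 in the Grg3 group and 5608, 1458 and 2758 in the Grg3 Grg4 group. Gm29216, the copy of part of mt-Co1, had 1447, 1433 and 1746, then 2695, 4171 and 1702, then 6941, 1485 and 6672 counts. Gm28438, the copy of mt-Nd3, had 198, 130 and 108, then 736, 281 and 86, then 360, 254 and 283. Each was high in some libraries with a mutant label and near the controls in others, and none passed the test in any comparison. By contrast Gm10222, the copy of mt-Nd4l, took 44.0% to 55.1% of the counts of its pair in every library, and Gm10925 took 51.9% to 62.9% of those with mt-Atp6. Counts cannot show from which of the identical places a read came, so values of the 5 genes inside the segment with an annotated copy there are uncertain.

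**Figure D5:**
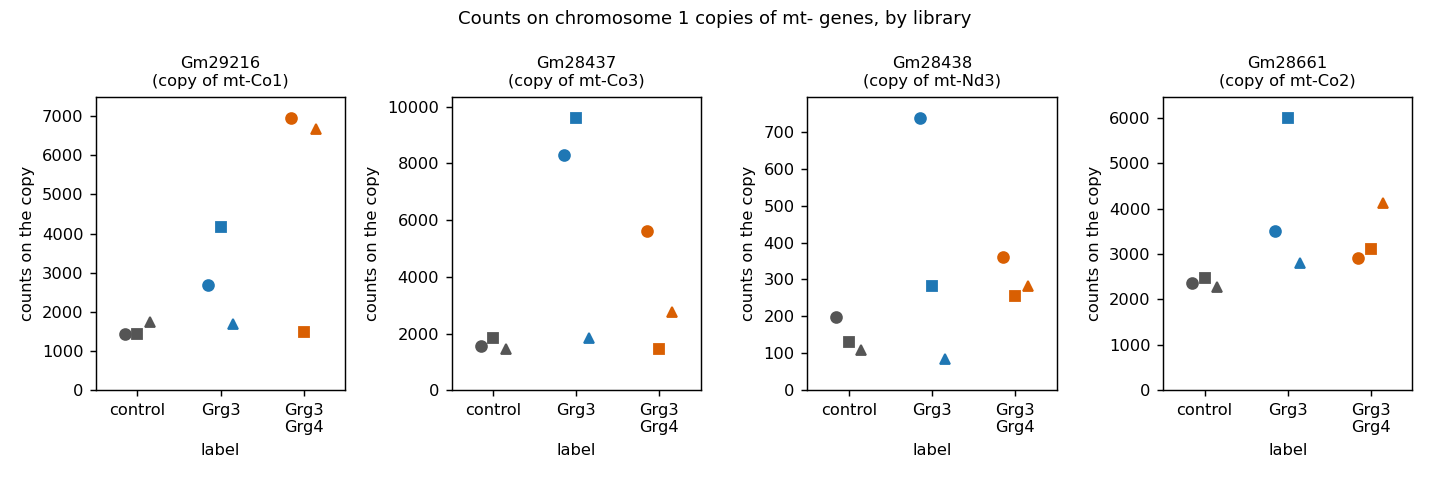
Counts on 4 pseudogenes of the chromosome 1 segment, 1 point per library, by label. Gm28437 ranges from 1456 to 9590 counts and Gm29216 from 1433 to 6941, and the high libraries differ between the copies.

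Nuclear genes of the same machinery were described by lists of respiratory subunits, the mitochondrial ribosome, and the replication, transcription, RNA-processing and regulatory factors. Of 234 listed genes, 231 were tested. None passed between Grg3 mutant and control labels, 2 passed between Grg3 Grg4 mutant and control, both higher, and none between the mutant labels (edgeR), where 1.40%, 2.17% and 0.172% of all genes passed. At an unadjusted p under 0.05 the counts were 34, 22 and 30 of 231, where all genes gave 19.1%, 20.2% and 17.3%. DESeq2 called 7, 6 and 3 of the nuclear genes and limma voom 0, 4 and 0. The 77 tested nuclear subunits of complexes I, III, IV and V had a median log2 fold change of 0.12 between Grg3 mutant and control (68 above 0), 0.02 between Grg3 Grg4 mutant and control (47 above 0) and -0.11 between the mutant labels (19 above 0). The 77 tested mitochondrial ribosomal proteins had medians of 0.09, 0.0077 and -0.11 (63, 40 and 14 above 0).

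The genes that passed were Trmu, which modifies mitochondrial tRNAs, and Sars2, the mitochondrial seryl-tRNA synthetase. Trmu was at 10.2, 10.4 and 9.99 CPM in controls, 11.3, 11.6 and 11.7 in the Grg3 group and 12.5, 15.9 and 15.2 in the Grg3 Grg4 group, a log2 fold change of 0.51 ± 0.110 (SE; edgeR adjusted p = 0.0455) between the last and control. Sars2 was at 9.16, 9.11 and 9.88, then 9.99, 11.2 and 10.7, then 12.8, 14.4 and 13.2 CPM, at 0.52 ± 0.102 (edgeR adjusted p = 0.0343). In both genes the 3 Grg3 Grg4 libraries were the highest. The Trmu call was lost without any one control and without Grg3 Grg4 mutant replicate 2 or 3, and the Sars2 call without any one of these 6 libraries. With sex as a term neither list held a called gene.

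The factors that copy and transcribe mitochondrial DNA did not pass in any comparison. Tfam, which packages mitochondrial DNA and starts transcription, was at 19.9 ± 0.293 CPM in controls, 21.8 ± 2.06 in the Grg3 group and 21.5 ± 3.00 in the Grg3 Grg4 group (SD, n = 3). The mitochondrial RNA polymerase Polrmt was at 20.4 ± 1.5, 19.0 ± 1.0 and 21.7 ± 3.34, and the initiation factor Tfb2m at 8.36 ± 0.271, 9.05 ± 2.88 and 10.2 ± 0.290 CPM. The helicase Twnk was at 18.1 ± 0.764, 19.6 ± 2.17 and 19.2 ± 1.51, and the DNA polymerase Polg at 43.2 ± 2.04, 40.5 ± 3.76 and 44.9 ± 1.05 CPM. For Tfb2m the Grg3 Grg4 libraries, at 10.1 to 10.6 CPM, all lay above the controls, at 8.05 to 8.56 (edgeR adjusted p = 0.464). The groups overlapped for the other 4 genes.

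Lrpprc, which stabilises mitochondrial mRNAs, was at 41.0 ± 3.76, 37.9 ± 3.08 and 45.2 ± 3.60 CPM and did not pass. Its partner Slirp had at most 2 counts in any library and was not tested. Gene counts leave out reads placed at several sites or on several genes, so this does not show that Slirp was absent. Nrf1, an activator of nuclear mitochondrial genes, was at 21.2 ± 1.23, 22.3 ± 1.56 and 23.7 ± 1.61 CPM, with all Grg3 Grg4 libraries above all controls (edgeR adjusted p = 0.375). The coactivator Ppargc1a was at 2.25 to 3.71 CPM in 8 libraries and at 11.4 in Grg3 Grg4 mutant replicate 2, whose 10 striated muscle markers summed to 1650 CPM against 3.34 to 46.6 in the other libraries. The part of muscle tissue in that value was not tested. Lars2, the mitochondrial leucyl-tRNA synthetase, was at 414, 269 and 230 CPM in controls, 116, 251 and 482 in the Grg3 group and 365, 316 and 368 in the Grg3 Grg4 group, and its Grg3 libraries spanned the whole range of the others.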

How the data were processed

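What the authors deposited are raw, unnormalized read counts by gene symbol, in a separate file for each library. Named per the submitters' processing notes, without roles, are HISAT2, HTSeq, bedtools, DESeq2, FastQC and Trim Galore, and the builds mm10 and GRCm38. Not given in the sources used here were versions, annotation, strand setting and read length. The 5 rows that name no gene held 28.5% to 33.2% of reads and stayed out of library sizes and tests.

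Counts of all 9 libraries were fitted with edgeR 4.0.16 in R 4.3.3 (quasi-likelihood F test, 2-sided, TMM, filterByExpr at 10 counts and 15 in total), which kept 19166 genes. A gene passed when its p, adjusted by Benjamini-Hochberg over all genes, was under 0.05. Each SE is the log2 fold change divided by the square root of F, and CPM is scaled by TMM. The fit was tested on simulated data. Alternatives included DESeq2 1.42.0 and voom of limma 3.58.1. No 2 libraries of a group were alike within counting noise (chi-square per degree of freedom 17.4 to 207). Gene positions, lengths and sequences came from GENCODE M21, and copies were sought among its transcripts only, by exact shared runs of 50 bases.

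Named were all protein-coding and rRNA mt- genes, the 6 tRNA genes of highest mean CPM, Tle3, Tle4, up to 2 called genes of smallest p per nuclear list, and 10 set factors. The chromosome 1 copies were added after their values were seen. Members and lists were chosen with earlier results of these data known.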

Additional observations from a re-analysis of the deposited data

How the results depend on the processing

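Over 51 gene-level differences and 812 alternative values, 775 kept direction and side of the threshold, 8 newly passed, 29 turned direction and 0 lost a call. The cause was not tested for any change below. mt- genes called numbered 1, 1 and 3 with DESeq2 in the order Grg3 mutant against control, Grg3 Grg4 mutant against control, and Grg3 Grg4 mutant against Grg3 mutant. In the last comparison 1 was called with no filter, 1 with the 1 CPM filter, and 0 to 1 with a library left out (1 without Grg3 mutant replicate 3).

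All genes called numbered 268, 415 and 33, and became 586, 930 and 228 with no filter, 169, 30 and 4 with sex as a term, and 1463, 1553 and 1019 with DESeq2. With voom they were 420 and 1033 in the comparisons against control. With only the 6 libraries compared they were 708 for Grg3 Grg4 mutant against control and 10 between the mutant labels, where the 1 CPM filter gave 70. Leaving out a library gave 36 to 303, 52 to 361 and 7 to 50. With the replicate block they were 167, 254 and 11. Same-numbered libraries did not deviate together (correlations -0.0858 to 0.094), so the numbers were not taken to pair the samples, and the block called 0 mt- genes and 0 genes of the nuclear lists, so neither Trmu nor Sars2.

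The 13-gene shares of 2.31%, 2.82% and 2.33% became 3.58%, 3.97% and 3.27% without acinar enzyme genes in the total and 1.59%, 1.98% and 1.58% of all reads. The rRNA shares of 0.0412%, 0.0678% and 0.0362% became 0.0638%, 0.0960% and 0.0509%, and 0.0283%, 0.0476% and 0.0245%.

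The log2 differences that turned direction had adjusted p far above the threshold. With a library left out, Grg3 mutant against control ranged from -0.269 to 1.09 for mt-Atp8, -0.0627 to 0.149 for mt-Co1, -0.164 to 0.091 for mt-Cytb, -0.0413 to 0.283 for mt-Nd2, -0.00106 to 0.912 for mt-Nd3, -0.0414 to 0.251 for mt-Nd4, -0.101 to 0.223 for mt-Nd5 and -0.377 to 1.16 for mt-Tc. With voom, mt-Co1 was at -0.0118 and mt-Nd5 at -0.0247. Grg3 Grg4 mutant against control ranged from -0.246 to 0.0738 for mt-Atp6, -0.704 to 0.197 for mt-Atp8, -0.0961 to 0.0873 for mt-Co2, -0.178 to 0.321 for mt-Co3, -0.0837 to 0.0835 for mt-Nd6 and -1.78 to 0.153 for mt-Tc. There mt-Co2 was 0.00101 with no filter, 0.00847 with the 1 CPM filter, 0.00647 with the replicate block, 0.112 with sex as a term and 0.00372 with only the 6 libraries compared, and mt-Nd6 was 0.00764 with voom. Between the mutant labels mt-Nd4l ranged from -0.067 to 0.377.

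mt-Tc had 4 to 31 counts per library. For genes with identical nuclear copies, more depth would leave read placement undecided.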
